A study of Mus musculus with 2 samples.

Results

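The 39 Hox genes of the mouse, every gene whose symbol is Hox followed by the cluster letter a, b, c or d and a paralogue number, were followed through the cell classes of the whole uterus on gestational day 4. They are 39 of the 31017 gene symbols that were counted, and come from 40 gene identifiers, since Hoxd4 has 2, which were summed. Of the 39 genes, 35 had at least 1 unique molecular identifier (UMI, a tag that counts 1 captured RNA molecule) in the kept cells, namely 10 of 11 HoxA genes, 9 of 10 HoxB genes, 8 of 9 HoxC genes and 8 of 9 HoxD genes. The data are 2 droplet single-cell RNA libraries, made by counting tags at the 3′ ends of RNA. The first group is 1 library from Mettl14 d/d uterus, a notation for deleted alleles of Mettl14, which encodes a subunit of the enzyme that places N6-methyladenosine on RNA. The other is 1 library from Mettl14 f/f uterus, in which both alleles are flanked but not recombined. Both came from whole uterus that was digested enzymatically and cleared of red blood cells, so the f/f controls carry the engineered allele too. The labels do not give the Cre driver, the part of the gene that is deleted, the strain, the age or how many animals went into each library. With 1 library per genotype there is no replicate check, so no test was made, and every interval below is an exact 95% interval that covers counting error only.

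Hox genes encode homeodomain transcription factors. They lie in clusters in which the order of the genes along the chromosome follows the order of the body regions that express them, with low paralogue numbers for anterior and high numbers for posterior regions. In the developing female tract the posterior HoxA genes are laid out along the Müllerian duct, with Hoxa9 in the future oviduct, Hoxa10 in the uterus, Hoxa11 in the uterus and cervix and Hoxa13 in the upper vagina. The adult mouse uterus keeps Hoxa10 and Hoxa11 on, and female mice that lack either gene are infertile or subfertile, with defects of implantation and of the stromal decidua. The protein partners that raise their DNA specificity are homeodomain proteins of the TALE class, such as the Meis and Pknox families.

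In d/d, 6661 barcodes held 44745031 UMIs, and 5977 cells were kept with a median of 5217 UMIs, while the f/f library held 8164 barcodes and 55080123 UMIs, of which 7095 cells were kept with a median of 6085. The libraries shared 8 barcodes. Cells were clustered without the 39 Hox genes and named from marker lists, so the classes are marker-defined and are called stroma-like, smooth muscle-like and so on; they were not located in sections. In the clusters given each name, 7 or 8 of 8 stromal markers were detected, and all of the epithelial (8), smooth muscle (7), pericyte (7), blood endothelial (8), lymphatic (6) and mesothelial markers (5). Mettl14 itself had 31 UMIs in d/d and 496 in f/f stroma-like cells, a CPM ratio of 0.162; the ratio was 0.131 in smooth muscle-like, 0.247 in epithelium-like, 0.346 in pericyte-like and 0.974 in blood endothelium-like cells, where both libraries had 87 UMIs; tags at the 3′ end may lie outside the deleted part. Values are CPM, the UMIs of a gene scaled to a common total of UMIs per class, and since each molecule gives 1 tag they are not scaled by gene length. Levels of different genes still depend on how well each 3′ end is captured.

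Free RNA released during digestion gives UMIs in droplets of cells that do not express a gene. Leukocytes, pooled from macrophage- or monocyte-like, dendritic-, natural killer- and T cell-like cells, were used to measure it, as a class of another developmental origin than the uterine wall. Summed Hox RNA in leukocytes was 58.5 CPM in d/d (750 cells, 186 UMIs) and 273 CPM in f/f (670 cells, 709 UMIs). The f/f level was the higher, and macrophage- or monocyte-like cells gave most of it, with 90.5 CPM in d/d and 594 in f/f. Without them the leukocyte level was 33.9 CPM in d/d and 163 in f/f. Cluster 19, which gave 47 of the 223 f/f macrophage- or monocyte-like cells and held 0 d/d cells, had stroma as its second best match. The 8 stromal markers differed in the same direction, with a summed level in leukocytes of 2.23% of that in stroma-like cells in d/d (single markers 1.72% to 5.08%) and 17.5% in f/f (16.04% to 19.3%). In macrophage- or monocyte-like cells alone these markers stood at 3.22% in d/d and 38.3% in f/f. Whether sources other than free RNA add to the leukocyte level was not tested. A Hox gene is called above the leukocyte level in a class when it had at least 10 UMIs there and its interval lay wholly above the leukocyte interval of the same library.

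By that rule 27 of the 39 genes were above the leukocyte level in at least 1 class of at least 1 library. The most Hox genes were seen in the muscular and vessel-wall classes, with 22 in d/d and 17 in f/f in smooth muscle-like cells and 21 in d/d and 16 in f/f in pericyte-like cells. Stroma-like cells had 14 in d/d and 10 in f/f, blood endothelium-like cells 15 in d/d and 12 in f/f, and epithelium-like cells 7 in d/d and 8 in f/f. These numbers depend on the depth of each class and on the leukocyte level of each library. The summed level followed another order. In d/d it was 983 CPM in stroma-like, 887 in smooth muscle-like, 546 in blood endothelium-like, 531 in pericyte-like, 529.9 in epithelium-like and 493 in lymphatic endothelium-like cells. In f/f it was 1261 CPM in stroma-like, 982 in smooth muscle-like, 973 in mesothelium-like, 751 in epithelium-like, 719.7 in pericyte-like, 614 in lymphatic endothelium-like and 582 in blood endothelium-like cells. Stroma-like and smooth muscle-like cells thus held the highest sums in d/d. In f/f stroma-like cells were highest, and the intervals of smooth muscle-like (939 to 1027) and mesothelium-like cells (837 to 1125) overlapped. In d/d the intervals of pericyte-like (511 to 551), epithelium-like (509 to 551) and blood endothelium-like cells (525 to 568) overlapped.

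**Figure D1:**
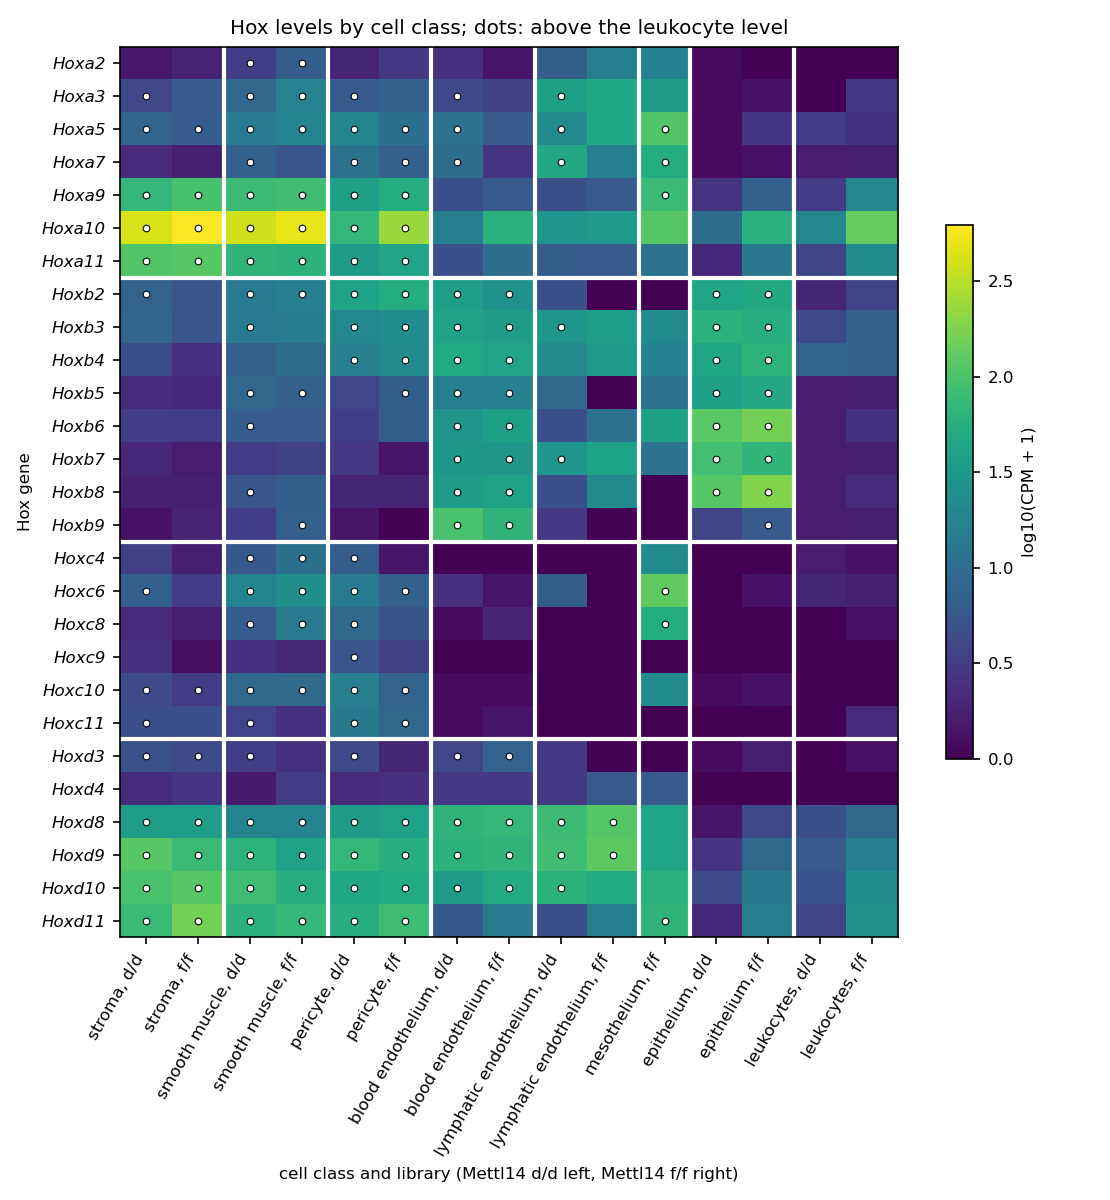
Level of the Hox genes with 50 or more UMIs over both libraries (rows, by cluster and paralogue number) as log10(CPM + 1) in each cell class (columns, Mettl14 d/d left of Mettl14 f/f); mesothelium-like cells were present in f/f only. White dots mark levels above the leukocyte level of the same library: the posterior HoxA and HoxD genes carry them in stroma, smooth muscle and pericyte classes, and Hoxb2 to Hoxb8 in both libraries' epithelium and blood endothelium.

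The classes differed in which cluster their Hox RNA came from. HoxA gave 62.0% and HoxD 33.7% of the Hox UMIs of d/d stroma-like cells, and 66.5% and 31.4% in f/f. HoxB gave 96.4% of the Hox UMIs of d/d epithelium-like cells (interval 95.6 to 97.1) and 84.1% in f/f (82.5 to 85.6). In stroma-like cells HoxB gave only 2.37% in d/d and 1.28% in f/f. The same split showed in paralogue number, since paralogues 9 to 13 made up 91.3% of Hox UMIs in d/d stroma-like cells and 3.87% in d/d epithelium-like cells, against 94.3% and 15.7% in f/f.

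Blood endothelium-like cells lay between these, with 59.9% HoxB and 31.0% HoxD in d/d and 49.5% and 35.6% in f/f. HoxC was the smallest share in most classes, at its highest in d/d pericyte-like cells (11.2%, against 3.84% in f/f) and in the f/f mesothelium-like cells (24.6%).

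**Figure D2:**
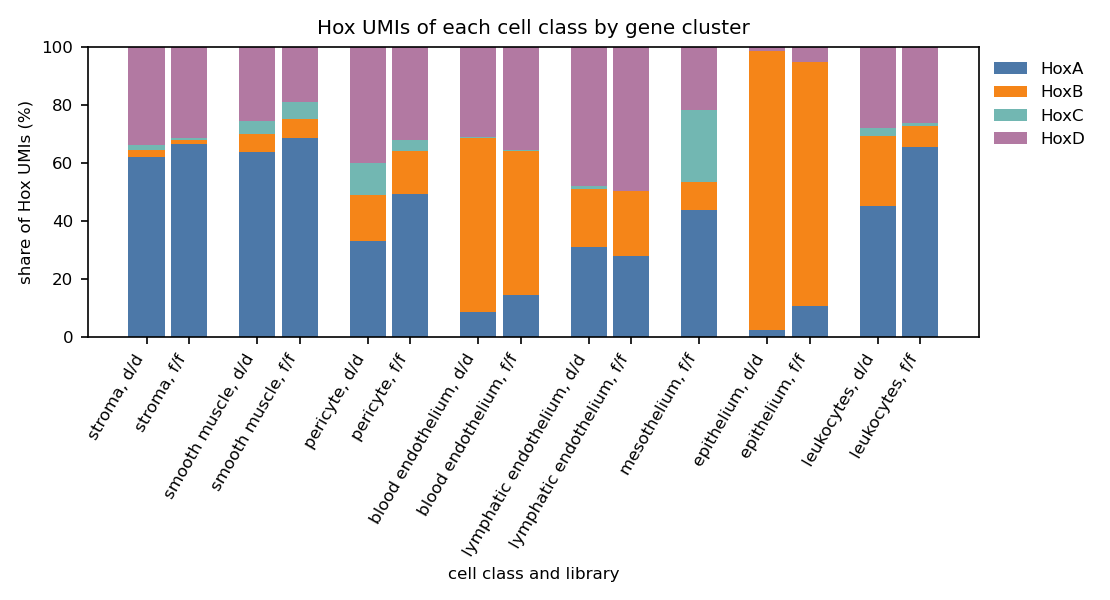
Share of Hox UMIs (y axis, %) from the HoxA, HoxB, HoxC and HoxD clusters in each cell class, with Mettl14 d/d left of Mettl14 f/f; each bar adds to all Hox UMIs of the class. Epithelium bars are 96.4% HoxB in d/d and 84.1% in f/f, and stroma bars 62.0% and 66.5% HoxA.

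Hoxa10 led the stromal set and Hoxb8, with Hoxb6, the epithelial set, so the sequences at their starts, and at that of Hoxa11, the neighbour of Hoxa10, are shown. RefSeq lists 24 promoter windows for 22 of the 39 genes in build GRCm38.p6, from 250 bases before to 50 bases after the start. Hoxa10 has 2 starts, the longer transcript beginning in the window chr6:52240805-52241104 and the shorter one in chr6:52234890-52235189, both on the minus strand; tags at the 3′ end do not tell the transcripts apart. The Hoxa11 window is chr6:52245761-52246060 on the minus strand and the Hoxb8 window chr11:96281655-96281954 on the plus strand. They read 5′ to 3′, with capitals for matches on either strand to TATAAA, the letters of a TATA box, and to TTTATG, letters bound by Cdx and posterior Hox proteins.
Hoxa10, longer transcript: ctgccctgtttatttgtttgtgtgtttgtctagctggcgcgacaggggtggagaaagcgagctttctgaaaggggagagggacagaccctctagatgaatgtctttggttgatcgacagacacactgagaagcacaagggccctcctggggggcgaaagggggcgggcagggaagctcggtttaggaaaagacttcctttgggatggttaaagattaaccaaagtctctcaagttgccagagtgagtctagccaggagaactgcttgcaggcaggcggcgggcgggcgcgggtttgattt
Hoxa10, shorter transcript: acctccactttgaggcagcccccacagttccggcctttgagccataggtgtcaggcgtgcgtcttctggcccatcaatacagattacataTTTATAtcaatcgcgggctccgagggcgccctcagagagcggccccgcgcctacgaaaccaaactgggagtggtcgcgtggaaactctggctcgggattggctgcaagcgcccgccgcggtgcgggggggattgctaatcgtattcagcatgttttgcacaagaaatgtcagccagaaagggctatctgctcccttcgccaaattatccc
Hoxa11: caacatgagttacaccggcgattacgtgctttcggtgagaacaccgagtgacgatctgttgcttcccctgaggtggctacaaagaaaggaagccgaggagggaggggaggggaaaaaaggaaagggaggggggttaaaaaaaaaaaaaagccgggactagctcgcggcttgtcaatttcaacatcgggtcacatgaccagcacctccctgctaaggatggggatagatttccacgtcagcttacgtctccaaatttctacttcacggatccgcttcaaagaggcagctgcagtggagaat
Hoxb8: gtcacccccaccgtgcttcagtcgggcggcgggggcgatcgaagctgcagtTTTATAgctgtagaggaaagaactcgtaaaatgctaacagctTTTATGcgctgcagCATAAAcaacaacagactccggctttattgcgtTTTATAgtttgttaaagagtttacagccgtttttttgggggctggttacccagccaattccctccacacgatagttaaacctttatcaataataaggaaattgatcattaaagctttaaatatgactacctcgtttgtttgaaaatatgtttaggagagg
TATAAA was found in the window of the shorter Hoxa10 transcript, once, and in that of Hoxb8, at 2 places, and 13.6% of all 32851 RefSeq windows hold it. TTTATG was found at 2 places in the Hoxb8 window, and in 5 of the 24 Hox windows in all, against 11.9% of all windows. TGACAG, the letters of a Meis site, was in 2 of the 24 Hox windows (those of Hoxa2 and Hoxa3) and in 19.2% of all windows. Both strands were searched, and in the windows printed here no match to one motif overlapped a match to the other. These are letter matches in a short window and say nothing of binding. The Hox windows had a median GC content of 57.7%, against 52.7% over all windows, and a median of 14.5 CG pairs, against 7.

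Stroma-like cells, a marker-defined class of fibroblasts not assigned to the endometrium or another layer, carried posterior HoxA and HoxD genes, led by Hoxa10. In d/d, with 1708 cells, Hoxa10 stood at 420.4 CPM (5491 UMIs, interval 409 to 432). In f/f, with 4731 cells, it stood at 618 CPM (20999 UMIs, interval 610.1 to 627). Hoxa10 alone thus gave 42.8% of all Hox UMIs of the class in d/d and 49.0% in f/f. Its log2 ratio of d/d to f/f was -0.56 (interval -0.60 to -0.51), short of 1.5-fold. As a mean over cells it was -0.71, past 1.5-fold. Hoxa11, which mouse stroma and glands need for implantation, had 107 CPM in d/d and 114 in f/f, and Hoxa9 70.0 and 93.5. There were 3.91 Hoxa10 UMIs per Hoxa11 UMI in d/d (interval 3.69 to 4.15) and 5.42 in f/f (5.23 to 5.61).

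The HoxD genes from Hoxd8 to Hoxd11 all lay below Hoxa10, some of them above Hoxa9 or Hoxa11 and Hoxd8 below both. Hoxd9 had 116 CPM in d/d and 78.7 in f/f, Hoxd10 95.9 and 115, and Hoxd8 35.3 and 34.7. Hoxd11 stood at 79.3 CPM (1036 UMIs, interval 74.6 to 84.3) in d/d and at 162 CPM (5515 UMIs, interval 158 to 167) in f/f. The order of the posterior HoxD genes therefore differed between the libraries: Hoxd9 was the highest of them in d/d and Hoxd11 in f/f. Below these came a tier of anterior and HoxC genes, of which Hoxa5, Hoxc10 and Hoxd3 were above the leukocyte level in both libraries and Hoxa3, Hoxb2, Hoxc6 and Hoxc11 in d/d only. Hoxa5, an anterior HoxA gene active in mesenchyme, had 7.04 CPM in d/d and 5.51 in f/f, and the lowest of the tier in d/d, Hoxa3, had 2.91 and 5.04.

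Differences between the libraries were counted as calls when a gene was higher or lower in d/d by 1.5-fold or more and had 50 or more UMIs in whichever library was higher. Class totals set the scale: with TMM scaling (trimmed mean of M values) the median log2 ratio over all genes moved to 0.10 from -0.11 in epithelium-like cells, to 0.06 from -0.12 in smooth muscle-like cells and to 0.06 from -0.17 in pericyte-like cells, and by less elsewhere. Of the 17 Hox genes with enough UMIs in stroma-like cells, 3 were higher in d/d (Hoxb3, Hoxc6 and Hoxc10) and 2 lower (Hoxa3 and Hoxd11), while among all 12107 genes with as many UMIs in this class 14.2% were higher and 20.2% lower. The Hox share of calls in either direction is thus near that of other genes. Their median log2 ratio was -0.01, against -0.14 over all genes. Hoxd11 had the lowest ratio, -1.03 (interval -1.13 to -0.94). Hoxc6 had the highest, 1.49 (interval 1.01 to 1.97), from 6.05 CPM in d/d and 2.15 in f/f. Hoxa3 had a ratio of -0.79 (interval -1.34 to -0.28), Hoxb3 of 0.64 (interval 0.26 to 1.03) and Hoxc10 of 0.70 (interval 0.11 to 1.27). Hoxb3 was above the leukocyte level in neither library, and Hoxa3 and Hoxc6 in d/d only. The summed level of all Hox genes had a log2 ratio of -0.36 (interval -0.39 to -0.33), with HoxA at -0.46 (interval -0.50 to -0.42) and HoxD at -0.26 (interval -0.31 to -0.21) lower and HoxB at 0.52 (interval 0.32 to 0.73) and HoxC at 0.88 (interval 0.64 to 1.12) higher in d/d. For all Hox genes it was -0.19 within cluster 5 and -0.12 within cluster 10, both described next, -0.10 after the leukocyte level of each library was subtracted and -0.21 when macrophages were left out of that level.

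The stroma-like class was made of cell clusters that the libraries did not share evenly, and Hox levels differed between them. Cluster 3, led by A2m and Itgbl1, held 61.9% of the d/d class and 2 f/f cells. Clusters 0 and 1, led by Col26a1 and Angptl7, held 42.6% and 42.5% of the f/f class, and 13 and 6 d/d cells. Cluster 5, led by Clec3b and Adh1, was the one well filled from both, with 585 d/d and 399 f/f cells, which are 34.3% of the d/d class and 8.43% of the f/f class. Within it the posterior genes were low and several genes of lower paralogue number high. Hoxa10 in cluster 5 was 202 CPM in d/d, against 476 in cluster 3 (ratio 0.423, 0.386 to 0.463), and 281 CPM in f/f, against 723 in cluster 0, a ratio of 0.389 (0.356 to 0.424). Hoxd10 had ratios of 0.313 (0.250 to 0.388) in d/d and 0.336 (0.269 to 0.414) in f/f for the same pairs of clusters, and Hoxa11 of 0.294 (0.237 to 0.361) and 0.328 (0.260 to 0.409).

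Hoxa5, Hoxb3 and Hoxc6 ran the other way. Hoxa5 was 2.54 (1.62 to 3.97) times as high in cluster 5 as in cluster 3 in d/d and 2.54 (1.57 to 3.99) times as high as in cluster 0 in f/f. Hoxb3 was 8.71 (5.48 to 14.2) times as high in d/d, at 24.2 against 2.78 CPM, and 2.00 (1.12 to 3.40) times in f/f. Hoxc6 was 7.21 (4.41 to 12.0) times as high in d/d, and in f/f it had 16.8 CPM in cluster 5 against 0.928 in cluster 0. Hoxd8 was 0.650 (0.493 to 0.844) times as high in cluster 5 in d/d, and in f/f its ratio of 0.861 (0.652 to 1.12) had an interval that held 1. Clusters 0 and 1 of f/f had Hoxa10 at 723 and 577 CPM. The cycling cluster 10, led by Hmmr and Prc1, had Hoxa10 at 463 CPM in d/d and 505 in f/f.

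Within cluster 5 alone the log2 ratio of d/d to f/f was -0.48 for Hoxa10, -0.40 for Hoxd11, 0.20 for Hoxc6, -0.72 for Hoxa3, -0.62 for Hoxc10 and 1.36 for Hoxb3. The calls for Hoxd11 and Hoxc6 were not met in cluster 5, Hoxc10 pointed the other way there on 18 d/d and 20 f/f UMIs, and Hoxb3 had a larger ratio than in the whole class. Cluster 10, with 46 d/d and 306 f/f cells, gave other values. Hoxd11 had a log2 ratio of -0.90, interval -1.35 to -0.49, past 1.5-fold there, and Hoxd9 of 0.69, interval 0.27 to 1.10. Hoxa10 had -0.13 and Hoxa11 0.17, with intervals that held 0, Hoxa3 had 0 UMIs in d/d and 12 in f/f, and Hoxb3 had 1 in d/d and 16 in f/f. How much of the class differences comes from its make-up and how much from cells of the same kind cannot be told apart with these libraries.

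**Figure D3:**
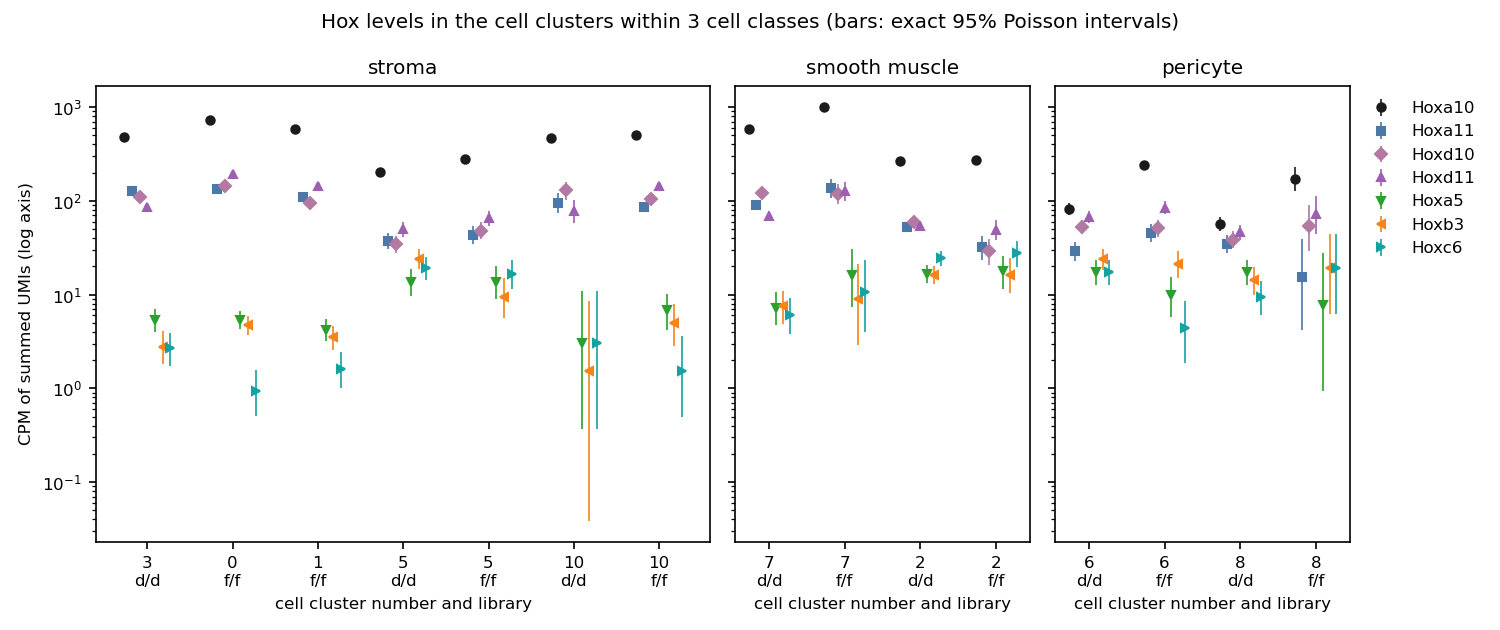
CPM (log axis) of 7 Hox genes in the cell clusters of the stroma, smooth muscle and pericyte classes, by library, with exact 95% Poisson intervals; a gene at 0 is not drawn. Cluster 5 of stroma has lower Hoxa10 and higher Hoxc6 than clusters 0, 1 and 3, and cluster 2 of smooth muscle than cluster 7.

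Smooth muscle-like cells, the contractile cells of the myometrium, shared the posterior set with the stroma and added HoxB and HoxC genes. Hoxa10 stood at 389.8 CPM (3400 UMIs, interval 377 to 403) in d/d, with 1479 cells, and at 482 CPM (950 UMIs, interval 452 to 514) in f/f, with 449 cells. These are 92.7% and 77.95% of the level in stroma-like cells of the same library. Hoxa9 reached 113% of the stromal level in d/d and 91.2% in f/f, while Hoxa11 (62.2% and 53.8%) and Hoxd8 (48.4% and 49.6%) were further below it. Hoxc6 was 17.2 CPM in d/d and 22.8 in f/f, that is 284% and 1062% of its stromal level. Hoxa2, which patterns the hindbrain in mouse embryos, was above the leukocyte level in this class alone, at 2.29 CPM in d/d and 5.58 in f/f. Of the other HoxC genes, Hoxc4, Hoxc8 and Hoxc10 were above the leukocyte level in both libraries, with 4.93, 5.39 and 7.68 CPM in d/d and 9.64, 12.7 and 8.12 in f/f. Stromal markers summed to 9.70% of their stromal level in this class in d/d and 26.1% in f/f (single markers 0.651% to 90.3% and 5.68% to 138%). The part of stromal RNA in the Hoxa10 level of this class was not tested.

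Both clusters of this class held cells of both libraries, and one of them, like cluster 5 of the stroma, had lower posterior HoxA and HoxD levels and higher HoxB and HoxC levels than the other. Cluster 7, led by Tnni2 and Acta1, had 532 d/d and 147 f/f cells, and cluster 2, led by Asic2 and Pcp4, had 947 d/d and 302 f/f cells. Hoxa10 was 583 CPM in cluster 7 and 263 in cluster 2 in d/d, 2.22 (2.07 to 2.38) times as high. In f/f it was 1009 and 274 CPM, a ratio of 3.68 (3.22 to 4.195). Cluster 7 of f/f thus held the highest Hoxa10 level of any cluster in either library, above cluster 0 of the stroma. Hoxd10 was 2.00 (1.73 to 2.33) times as high in cluster 7 in d/d and 4.09 (2.73 to 6.19) times in f/f, and Hoxa11 1.72 (1.46 to 2.03) and 4.29 (2.93 to 6.34) times.

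HoxB and HoxC genes ran the other way between the 2 clusters. In d/d, cluster 7 over cluster 2 gave 0.332 (0.194 to 0.542) for Hoxb2, 0.102 (0.0269 to 0.274) for Hoxb5, 0.248 (0.149 to 0.396) for Hoxc6 and 0.207 (0.0854 to 0.435) for Hoxc10. HoxB and HoxC made up 1.76% and 1.42% of the Hox UMIs of cluster 7 in d/d and 1.24% and 1.35% in f/f, against 10.3% and 7.69% of those of cluster 2 in d/d and 11.5% and 10.4% in f/f. The clusters were not assigned to the inner or outer muscle layer, since no list of markers for those layers was used. Stromal markers stood at 11.2% of their stromal level in cluster 7 and 8.72% in cluster 2 in d/d, and at 33.3% and 23.3% in f/f.

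Between the libraries, 16 Hox genes had enough UMIs in smooth muscle-like cells. Hoxd9 and Hoxd10 were called higher in d/d and Hoxa3 lower, in a class where 10.9% of 9624 genes were called higher and 14.7% lower. Hoxd9 stood at 62.5 CPM in d/d and 39.6 in f/f, a log2 ratio of 0.66 (interval 0.31 to 1.02). Hoxd10 stood at 84.0 and 54.3, a log2 ratio of 0.63 (interval 0.34 to 0.94). Within cluster 2 alone the ratios were 0.84 and 1.05, and within cluster 7 they were 0.23, interval -0.24 to 0.73, and 0.02, interval -0.35 to 0.42. The calls thus held in cluster 2 and not in cluster 7, and neither gene reached 1.5-fold when doublets were kept or when each cell weighed equally. Hoxa3, an anterior gene that patterns the pharynx in mouse embryos, had 7.34 CPM in d/d and 16.2 in f/f, a log2 ratio of -1.15 (interval -1.78 to -0.49). Hoxa10 had a ratio of -0.31 in the class, -0.79, interval -0.93 to -0.65, in cluster 7 and -0.06 in cluster 2. Hoxa11 had 0.12 in the class, -0.61, interval -0.97 to -0.23, in cluster 7 and 0.71 in cluster 2. Hoxd11 was also past 1.5-fold in cluster 7 (-0.89), so class values for these genes join clusters that differed. The summed level had a log2 ratio of -0.15 (interval -0.22 to -0.07), which was 0.0350 with TMM scaling, 0.23 less the leukocyte level, 0.0945 in cluster 2 and -0.63 in cluster 7, and HoxD alone had 0.29 (interval 0.12 to 0.45).

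Pericyte-like cells, named from markers of vessel mural cells, carried HoxA, HoxB, HoxC and HoxD genes, and in d/d no gene stood far above the others. Hoxd9 (70.3 CPM in d/d and 54.8 in f/f), Hoxd11 (57.1 and 83.4), Hoxd10 (45.7 and 51.5), Hoxb2 (40.3 and 52.0) and Hoxd8 (33.9 and 39.1) were within a narrow range in d/d. Hoxb2, Hoxb3 and Hoxb4 were above the leukocyte level in both libraries while Hoxb6, Hoxb7 and Hoxb8 were in neither, so the anterior end of the HoxB cluster was present without the part that led the epithelium. Hoxc6, Hoxc10 and Hoxc11 were also above it in both, and 6 HoxC genes were in d/d (Hoxc4, Hoxc6, Hoxc8, Hoxc9, Hoxc10 and Hoxc11).

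The class consisted of cluster 6, led by Higd1b and Rgs5, with 660 d/d and 318 f/f cells, and of cluster 8. Cluster 8, led by Grip2 and Susd5, had 538 d/d and 62 f/f cells, 44.9% of the d/d class and 16.3% of the f/f class. Its second best match was smooth muscle, and no list of markers for vascular smooth muscle was used. Class ratios of d/d to f/f thus join these clusters in unequal shares. In d/d Hoxc11 was 4.16 (2.23 to 8.32) times as high in cluster 8 as in cluster 6, at 20.5 and 4.94 CPM, while Hoxa9 was 0.479 (0.347 to 0.656) and Hoxa10 0.693 (0.557 to 0.859) times as high.

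Of 15 Hox genes with enough UMIs, 5 were called higher in d/d (Hoxa5, Hoxa7, Hoxc6, Hoxc10 and Hoxc11) and 1 lower (Hoxa10), in a class where 14.0% of 8579 genes were called higher and 22.0% lower. Hoxa10 stood at 69.7 CPM (360 UMIs, interval 62.7 to 77.3) in d/d and at 233 CPM (489 UMIs, interval 213 to 255) in f/f, a log2 ratio of -1.74 (interval -1.94 to -1.54). The leukocyte level of Hoxa10 was 18.6 CPM in d/d and 134 in f/f, and stromal markers stood at 27.9% of their stromal level in d/d pericyte-like cells (single markers 1.52% to 129%) and 59.99% in f/f (10.8% to 254%). Their part in the ratio was not tested. The Hoxa10 ratio was -1.56 in cluster 6 and -1.60 in cluster 8. The genes called higher rested on few UMIs: Hoxc6 had 70 in d/d and 13 in f/f (log2 ratio 1.13, interval 0.26 to 2.11), and Hoxc10 75 and 14 (1.12, interval 0.29 to 2.06). Hoxa5 had 17.4 CPM in d/d and 9.53 in f/f, a ratio of 0.87 (interval 0.16 to 1.65), and the intervals of Hoxa7 (0.73, interval -0.17 to 1.73) and Hoxc11 (0.72, interval -0.08 to 1.61) held 0. Hoxc11 had a ratio of -0.73 in cluster 6 and 2.42 in cluster 8, the second on 52 d/d UMIs and 1 f/f UMI, and Hoxc6 had -1.02 in cluster 8 on 24 and 5 UMIs. HoxC as a whole had a log2 ratio of 1.11 (interval 0.70 to 1.54) and HoxA of -1.01 (interval -1.15 to -0.87).

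Blood endothelium-like cells, which line the vessels, had Hoxb2 to Hoxb9 together with Hoxd3, Hoxd8, Hoxd9 and Hoxd10 above the leukocyte level in both libraries. Hoxb9 was their leading gene in d/d, at 95.8 CPM (456 UMIs, interval 87.2 to 105), and stood at 66.9 CPM (310 UMIs, interval 59.6 to 74.7) in f/f, second there to Hoxd8. In epithelium-like cells the same gene had 2.78 CPM in d/d and 5.33 in f/f, and in stroma-like cells 0.383 and 0.883. The Hoxb9 interval of the blood endothelium-like class lay above that of every other class in both libraries. Hoxb4, best known from blood stem cells, had 50.4 CPM in d/d and 42.1 in f/f, and the other genes from Hoxb2 to Hoxb8 lay between 15.1 (Hoxb5) and 39.3 (Hoxb3) in d/d and between 15.3 (Hoxb5) and 38.2 (Hoxb8) in f/f. Hoxd8 had 64.5 CPM in d/d and 70.7 in f/f, which is 183% and 204% of its stromal level, while Hoxd11 had 6.09% and 7.83%.

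Hoxd10 was the last HoxD gene above the leukocyte level in this class, at 33.6 CPM in d/d and 51.1 in f/f. Hoxd11 was above it in neither, at 4.83 and 12.7, where leukocytes had 2.83 and 25.4. Hoxa9, Hoxa10 and Hoxa11 were not above it in either library, with Hoxa10 at 15.1 CPM in d/d and 60.2 in f/f, under the 18.6 and 134 of leukocytes.

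Of 14 Hox genes with enough UMIs, Hoxa5 was called higher in d/d and Hoxa10, Hoxd10 and Hoxd11 lower, in a class where 11.4% of 8737 genes were called higher and 11.2% lower. Hoxa10 (log2 ratio -1.99) and Hoxd11 (-1.40) were not above the leukocyte level in either library, and the ratios in leukocytes were -2.85 and -3.17; the part of free RNA in these values was not tested. Hoxd10 had a ratio of -0.60 (interval -0.90 to -0.31), and its leukocyte level was 4.09 CPM in d/d and 23.1 in f/f. Hoxa5 had 10.5 CPM in d/d and 5.39 in f/f, a ratio of 0.96 (interval 0.24 to 1.72). Of the leading genes, Hoxb9 had a ratio of 0.52 (interval 0.31 to 0.73), Hoxd8 of -0.13 and Hoxd9 of -0.05, all short of 1.5-fold. Cluster 16, led by Sema3g, Dll4 and Gja5, had 86 cells, all from d/d; in it Hoxa10 was 5.37 (2.92 to 9.39) times as high as in cluster 4, at 65.6 CPM on 17 UMIs, above the leukocyte level of d/d, and Hoxd11 had 34.8 CPM on 9 UMIs. Hoxb8 was 2.20 (1.27 to 3.61) and Hoxb3 2.44 (1.503 to 3.78) times as high as in cluster 4, and Hoxb9 0.881 (0.546 to 1.35) times.

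Lymphatic endothelium-like cells were few, with 61 d/d and 81 f/f cells. Hoxd9 and Hoxd8 led them, Hoxd9 at 86.2 CPM (46 UMIs, interval 63.1 to 115) in d/d and 122 CPM (24 UMIs, interval 78.04 to 181) in f/f, and Hoxd8 at 80.6 and 112 CPM. In d/d Hoxa7 (46.8 CPM, 25 UMIs), Hoxa3 (37.5 CPM, 20 UMIs), Hoxa5, Hoxb3, Hoxb7 and Hoxd10 were also above the leukocyte level. Hoxb9, the leader of the blood endothelium, had 1 UMI in d/d and 0 in f/f, with upper interval ends of 10.4 and 18.7 CPM. The lymphatic and the blood endothelium shared Hoxd8 and Hoxd9 but not Hoxb9, and Hoxa3 was 3.15 CPM in d/d blood endothelium-like cells.

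Epithelium-like cells, the lining and glands of the endometrium, had the opposite set to the stroma, with Hoxb2 to Hoxb8 above the leukocyte level in both libraries and no HoxA, HoxC or HoxD gene above it in either. In d/d, with 160 cells of a median of 18628 UMIs, Hoxb6 stood at 118 CPM (555 UMIs, interval 109 to 129) and Hoxb8 at 114 CPM (536 UMIs, interval 105 to 125). In f/f, with 209 cells of a median of 9975 UMIs, Hoxb6 stood at 161 CPM (453 UMIs, interval 146 to 176) and Hoxb8 at 184 CPM (519 UMIs, interval 169 to 201). Their separate intervals overlapped in both libraries, which does not settle their order, and no interval of their ratio was taken. Hoxb7 had 88.8 CPM in d/d and 68.6 in f/f, Hoxb3 59.3 and 54, Hoxb4 45.5 and 62.5, Hoxb2 44.0 and 48.7 and Hoxb5 37.1 and 47.2. Hoxb9, the next gene of the cluster, had 2.78 CPM in d/d and 5.33 in f/f, far below its neighbour Hoxb8, and was above the leukocyte level in f/f only.

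Hoxa10, which the stroma-like cells of the same libraries carried at 420.4 CPM in d/d and 618 in f/f, had 8.75 CPM (41 UMIs, interval 6.28 to 11.9) in d/d epithelium-like cells and 58.6 CPM (165 UMIs, interval 50.01 to 68.3) in f/f. That is 2.08% and 9.48% of the stromal level, and below the leukocyte level in both libraries. Stromal markers in the same cells stood at 1.42% of their stromal level in d/d (single markers 0.808% to 1.72%) and 12.0% in f/f (7.99% to 18.0%). Its log2 ratio of d/d to f/f was -2.74 in epithelium-like cells and -2.85 in leukocytes, and the part of free RNA in these values was not tested.

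The f/f epithelium-like class held a cluster led by gland genes such as Cxcl15, Spink1 and Foxa2 (cluster 13, 133 cells) and one led by luminal genes such as Calb1 and Lpar3 (cluster 17, 76 cells), while the 160 d/d cells all fell in cluster 13. A further cluster of 48 f/f cells with the same luminal genes stayed unnamed and is not counted here. No HoxB gene from Hoxb2 to Hoxb8 was resolved between them: cluster 13 over cluster 17 gave 0.984 (0.822 to 1.18) for Hoxb8, 1.19 (0.979 to 1.46) for Hoxb6, 0.893 (0.665 to 1.20) for Hoxb7 and 0.759 (0.558 to 1.03) for Hoxb4, and the intervals of all 7 genes held 1. The widest of those given here, for Hoxb4, still allows a level in cluster 13 of 0.558 times that in cluster 17.

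Of 8 Hox genes with enough UMIs in epithelium-like cells, none was called higher in d/d and 2 were called lower, Hoxa10, at a level below that of leukocytes, and Hoxb8, in a class where 14.5% of 8047 genes were called higher and 21.4% lower. Hoxb8 had a log2 ratio of -0.69 (interval -0.87 to -0.51), Hoxb6 of -0.44 (interval -0.62 to -0.26) and Hoxb4 of -0.46 (interval -0.75 to -0.16), while Hoxb7 had 0.37 (interval 0.12 to 0.63) and Hoxb3 0.14 (interval -0.15 to 0.43). Neighbouring genes of 1 cluster thus lay on both sides of 0 in these libraries. HoxB as a whole had -0.31 (interval -0.40 to -0.22), against a median of -0.11 over all genes of the class. In cluster 13 alone, without the luminal cluster that only f/f had, Hoxb8 had -0.68, Hoxb6 -0.53 and Hoxb7 0.44. The call for Hoxb8 was not met when doublets were kept, when mitochondrial and ribosomal protein genes were left out of the totals or when these were scaled by TMM.

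**Figure D4:**
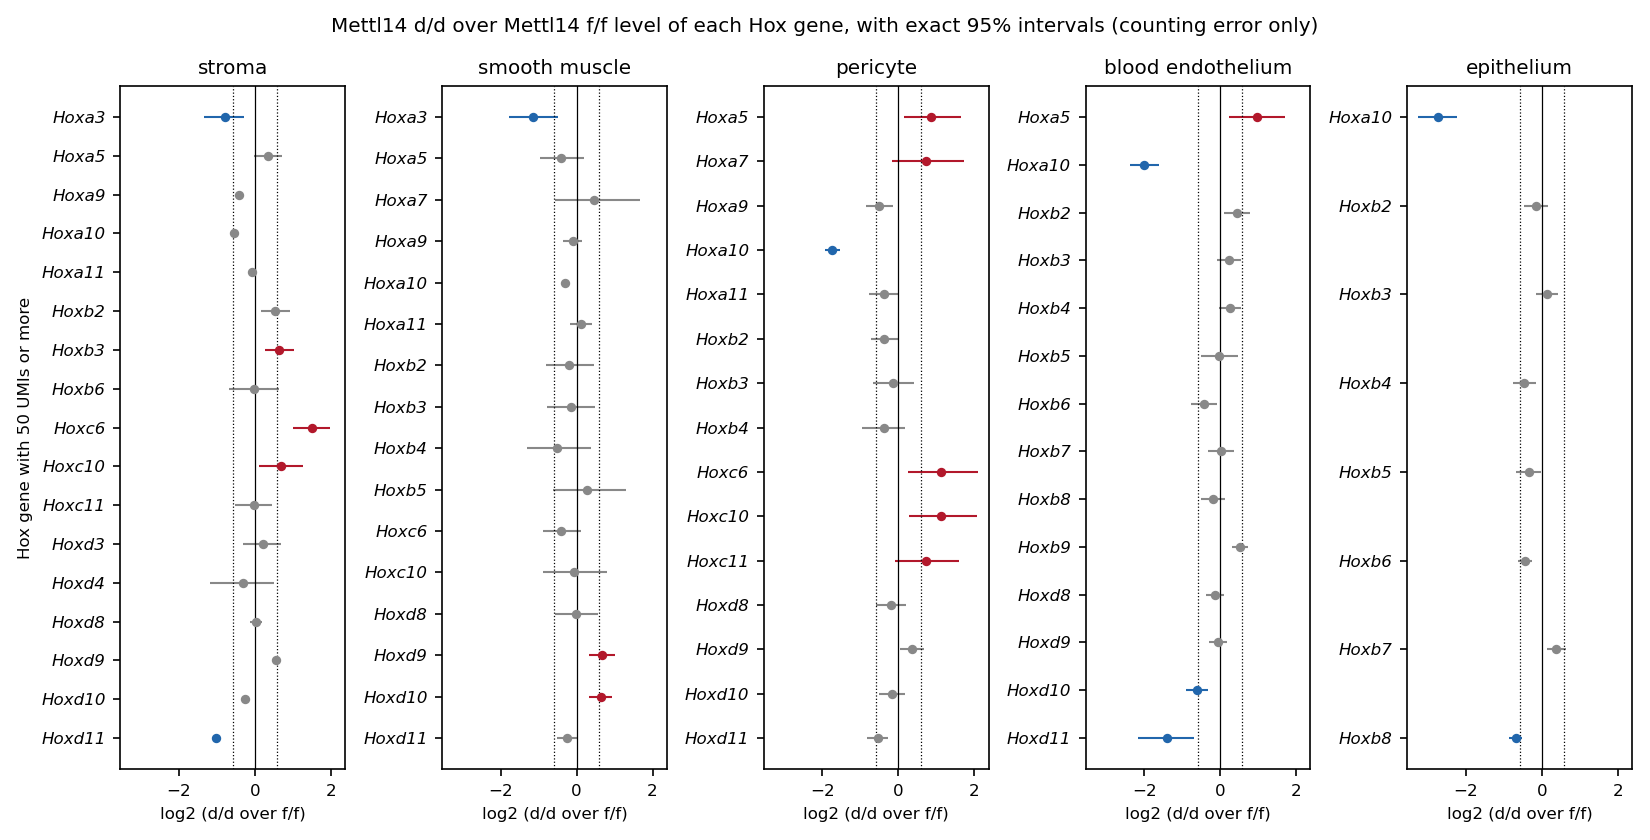
Log2 ratio of Mettl14 d/d to Mettl14 f/f (x axis) for each Hox gene that had 50 or more UMIs in whichever library was higher, in 5 cell classes, with exact 95% intervals that cover counting error only; dotted lines mark 1.5-fold. Red and blue points are past 1.5-fold, such as Hoxd11 in stroma (-1.03) and Hoxc6 in stroma (1.49); the Hoxa10 levels of blood endothelium and epithelium are not above those of leukocytes.

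Mesothelium-like cells, the outer covering of the uterus, were found in f/f only, as 35 cells. Hoxc6 stood at 128 CPM (24 UMIs, interval 81.8 to 189.9) and Hoxa5 at 106 CPM (20 UMIs, interval 65.0 to 164), with Hoxa9 (79.8 CPM), Hoxd11 (63.8), Hoxa7 (53.2) and Hoxc8 (53.2) also above the leukocyte level, on 10 to 15 UMIs each. Hoxc6 was 5937% and Hoxa5 1931% of its level in f/f stroma-like cells. Hoxa10 had 112 CPM (21 UMIs, interval 69.1 to 171), not above the leukocyte level. The intervals of Hoxc6, Hoxa10, Hoxa5 and Hoxa9 overlapped, so no leading gene is resolved in these few cells.

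The ends of the clusters gave few or no reads. Hoxa13, Hoxb13, Hoxc12 and Hoxd12 had 0 UMIs. A fixed limit of 3 counts is 0.0744 CPM over all kept cells of d/d and 0.0616 of f/f. This limit is lower than the upper end of the exact interval used elsewhere. Hoxc13 and Hoxd13 had 2 UMIs each over both libraries, Hoxd1 had 4 and Hoxb1 had 5. The highest-numbered genes above the leukocyte level were Hoxa11, Hoxb9, Hoxc11 and Hoxd11. The remaining genes above the leukocyte level in no class were Hoxa4, Hoxa6, Hoxc5 and Hoxd4, with 40, 23, 35 and 111 UMIs in all. Hoxa4 and Hoxa6 lie between Hoxa3, Hoxa5 and Hoxa7, which were above it. Hoxd4 shares exon sequence with Hoxd3, and Hoxc5 with Hoxc10, on the same strand in the GENCODE vM21 annotation of GRCm38, so their counts may be split or lost between the members of a pair, and those of Hoxd3 and Hoxc10 likewise. The clusters lie on chromosome 6 (HoxA, minus strand, 52155590 to 52260880), 11 (HoxB, 96194316 to 96368256), 15 (HoxC, 102921103 to 103036852) and 2 (HoxD, 74668310 to 74765142), the last 3 on the plus strand.

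HoxA, HoxD and HoxB UMIs were also counted cell by cell, with each cell thinned to 2000 UMIs. Few Hox UMIs remained, on average 1.86 per cell in d/d and 2.54 in f/f stroma-like cells and 1.03 and 1.48 in epithelium-like cells. Many cells could thus show only 1 kind, so the shares cannot tell whether a cell expresses 1 set or both. After thinning, 72.2% of 1594 d/d stroma-like cells had HoxA or HoxD UMIs without HoxB and 2.13% the reverse. In f/f the shares of 4480 cells were 84.3% and 0.558%. Of epithelium-like cells, 58.0% of 157 in d/d had HoxB UMIs without HoxA or HoxD and 1.91% the reverse, against 62.7% and 4.98% of 201 in f/f. Both kinds together were seen in 15.8% of 524 blood endothelium-like cells in d/d and 17.6% of 443 in f/f, and in 8.12% of 1096 pericyte-like cells in d/d and 14.4% of 347 in f/f. In leukocytes, which give the background, 4.68% of 619 d/d cells and 24.3% of 432 f/f cells had HoxA or HoxD UMIs alone.

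**Figure D5:**
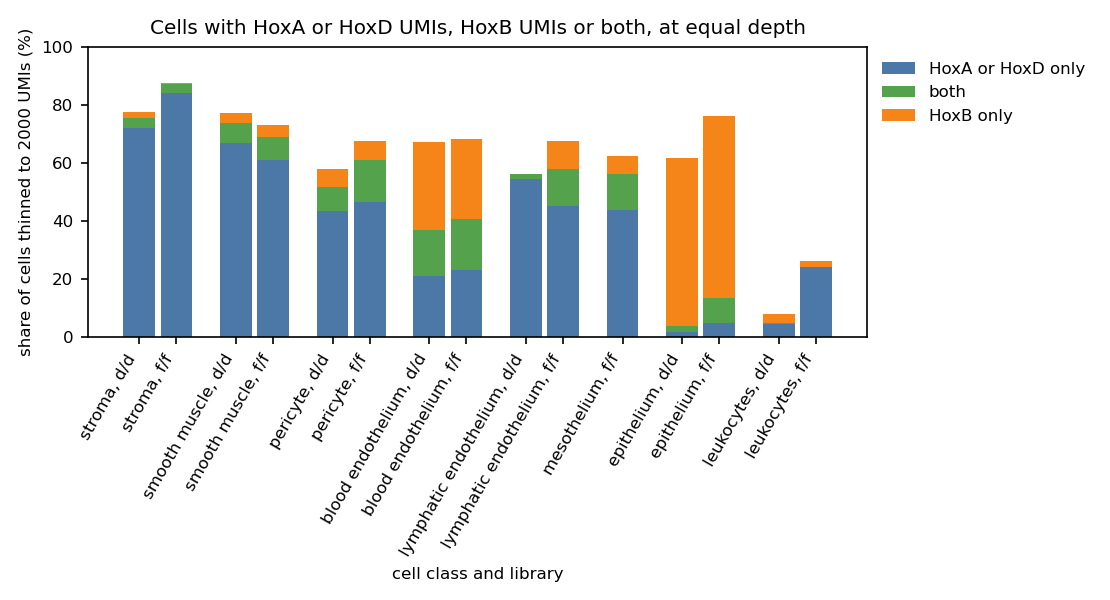
Share of cells (y axis, %) with HoxA or HoxD UMIs only, HoxB UMIs only or both, after each cell was thinned to 2000 UMIs; cells with fewer were left out, and Mettl14 d/d stands left of Mettl14 f/f. HoxB-only cells make up 58.0% of epithelium in d/d and 62.7% in f/f, and 2.13% and 0.558% of stroma. Cells held few Hox UMIs after thinning, so the absence of a kind does not show that a cell lacks it.

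Single genes were also counted at equal depth. Hoxa10 was seen in 49.8% (interval 47.3 to 52.3, unthinned 77.5%) of d/d stroma-like cells and 67.1% (interval 65.7 to 68.5, unthinned 91.7%) in f/f, and in leukocytes in 2.26% (interval 1.24 to 3.77, unthinned 4.80%) in d/d and 15.7% (interval 12.4 to 19.5, unthinned 21.8%) in f/f. The median depth was 7014 UMIs in d/d stroma-like cells and 6598 in f/f, against 3369.5 and 2644 in leukocytes. Hoxb8 was seen in 17.8% (interval 12.2 to 24.7, unthinned 76.9%) of d/d epithelium-like cells and 26.9% (interval 20.9 to 33.6, unthinned 83.3%) in f/f, and Hoxb9 in 16.98% (interval 13.9 to 20.5, unthinned 43.2%) of d/d blood endothelium-like cells and 13.1% (interval 10.1 to 16.6, unthinned 38.4%) in f/f. In leukocytes the thinned shares of Hoxb8 were 0.162% in d/d and 0% in f/f, and Hoxb9 was seen in none of the 619 d/d and 432 f/f cells, below the shares of epithelium-like and blood endothelium-like cells.

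Of the TALE cofactors, Meis2 had 995 CPM in d/d and 832 CPM in f/f in smooth muscle-like cells (log2 ratio 0.26) and 462 CPM in d/d and 455 CPM in f/f in blood endothelium-like cells (0.02), within 1.5-fold in both. In stroma-like cells it had 169.9 CPM in d/d and 103 CPM in f/f and was called higher in d/d (0.72), and in epithelium-like cells it had 18.8 CPM in d/d and 33.7 CPM in f/f and was called lower (-0.85). Its leukocyte level was 27.1 CPM in d/d and 24.7 in f/f, so the d/d epithelium level lay below it. Pknox2 had 72.2 CPM in d/d and 35.9 CPM in f/f in epithelium-like cells and was called higher there (1.01). Of the 8 cofactors reported, 1 was called higher and 1 lower (Pbx4) in stroma-like cells, where 14.2% of all genes were higher and 20.2% lower. In epithelium-like cells 1 was higher and 2 lower (Meis2 and Pbx2) of 4 measured (14.5% and 21.4% of all genes), in smooth muscle-like cells 1 higher (Meis3) and 1 lower (Meis1) of 6 (10.9% and 14.7%), and none was called of 7 in pericyte-like and 4 in blood endothelium-like cells. Their median log2 ratio was 0.04 in stroma-like and -0.59 in epithelium-like cells, against -0.14 and -0.11 over all genes.

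Of 8 noncoding RNAs named for the clusters, Hoxd3os1, Hotairm1, Hoxb3os and Hoxb5os had at least 50 UMIs in some class. Hoxd3os1, antisense to Hoxd3, had 22.0 CPM in d/d and 13.2 CPM in f/f in smooth muscle-like cells and 21.6 CPM in d/d and 12.3 CPM in f/f in blood endothelium-like cells, with log2 ratios of 0.74 and 0.82. Hotairm1, transcribed from the anterior end of HoxA, had 24.8 CPM in d/d and 11.9 CPM in f/f in pericyte-like cells (log2 ratio 1.06) and 4.52 CPM in d/d and 0.942 CPM in f/f in stroma-like cells (2.26). Hoxb5os had 11.1 CPM in d/d and 23.4 CPM in f/f in epithelium-like cells (-1.08). In all, 1 of 3 measured was called higher in stroma-like cells, 1 of 4 in smooth muscle-like, 3 of 4 in pericyte-like and 1 of 1 in blood endothelium-like cells, and the 1 measured in epithelium-like cells was lower. Over all genes, 14.2%, 10.9%, 14.0% and 11.4% were called higher in those 4 classes in the same order, and 21.4% lower in epithelium-like cells. Their median log2 ratio was 0.45 in stroma-like, 0.38 in smooth muscle-like and 0.96 in pericyte-like cells. Whether the counting used strand is not given in the sources used here, so reads of a gene and its antisense partner may not be told apart.

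Of 16 chromatin regulators of Hox genes, 1 was called higher and 1 lower in stroma-like cells, 1 and 0 of 14 measured in epithelium-like, 4 and 0 of 15 in smooth muscle-like, 1 and 4 of 15 in pericyte-like and 1 and 1 of 15 in blood endothelium-like cells. Over all genes, the shares called higher and lower in these classes were 14.2% and 20.2%, 14.5% and 21.4%, 10.9% and 14.7%, 14.0% and 22.0%, and 11.4% and 11.2%, and they stand beside the next 2 lists too. Kdm6b, which removes the repressive mark that Polycomb proteins place, was called higher in all 5 classes, at log2 ratios from 0.64 in stroma-like to 1.85 in pericyte-like cells, and its leukocyte level was 569.7 CPM in d/d and 95.9 in f/f. The median over the list lay between -0.24 in stroma-like and 0.13 in smooth muscle-like cells. Of 12 upstream regulators, none of the 7 measured in stroma-like cells was called, with Esr1, the oestrogen receptor, at 289 CPM in d/d and 255 CPM in f/f and Pgr, the progesterone receptor, at 203 CPM in d/d and 259.6 CPM in f/f. In the other classes 1 was higher and 2 lower of 5 in epithelium-like, 1 and 1 of 6 in smooth muscle-like, 0 and 1 of 6 in pericyte-like and 2 and 2 of 6 in blood endothelium-like cells. Their medians ran from -0.38 in smooth muscle-like to 0.21 in blood endothelium-like cells. Of the 8 genes that flank the clusters, 4 were measured in each class, with medians from -0.26 in epithelium-like to -0.08 in smooth muscle-like cells and 0 called in stroma-like and epithelium-like cells, 1 lower (Skap2) in smooth muscle-like and in blood endothelium-like cells, and 1 higher (Calcoco1) and 1 lower (Mtx2) in pericyte-like cells.

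Of 12 genes linked to HOXA10 or HOXA11 in the endometrium, 10 were measured in stroma-like cells, of which 4 were called higher in d/d (Cdkn1a, Lif, Bmp2 and Wnt4) and 5 lower (Itgb3, Ptger3, Ptger4, Fkbp4 and Lmo2), where 14.2% of all genes of the class were higher and 20.2% lower. Ptger3, a prostaglandin E receptor whose stromal level depends on Hoxa10 in mice, had 2.22 CPM in d/d and 19.4 CPM in f/f, a log2 ratio of -3.13. Itgb3, an integrin subunit that HOXA10 activates in human endometrial cells, had 15.5 CPM in d/d and 23.4 CPM in f/f (-0.59). Wnt4, which stroma needs for decidualization, had 22.0 CPM in d/d and 6.33 CPM in f/f (1.80), and Cdkn1a, a cell cycle inhibitor, 259 CPM in d/d and 16.02 CPM in f/f (4.02). Cdkn1a was higher in every class and in leukocytes too, at 693 CPM in d/d and 99.8 in f/f. With 4 called higher and 5 lower, the median of the 10 was -0.17, against -0.14 over all genes of the class. Whether Hoxa10 has a part in these values was not tested. In epithelium-like cells 2 of 6 were higher (Cdkn1a and Wnt4) and 2 lower (Ptger4 and Lif), in smooth muscle-like cells 1 and 2 of 7, in pericyte-like cells 3 and 4 of 7 and in blood endothelium-like cells 1 and 3 of 6, against the shares over all genes given above.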

How the data were processed

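Single-cell libraries (10x Genomics 3' version 3 chemistry) were made from whole uterus on gestational day 4, with 1 Mettl14 d/d and 1 Mettl14 f/f library. The deposited values are raw UMI counts per gene and cell. Reads were processed with Cell Ranger 3.0.1 against mm10 per the submitters' processing notes, while the file headers name version 6.0.1; strand use, intron counting and any doublet removal are not given in the sources used here. The files hold 6661 d/d and 8164 f/f barcodes, and the labels' protocol aimed for 8000 to 10000 cells per library.

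Barcodes under 1000 UMIs, under 500 detected genes or above 20% mitochondrial UMIs were dropped, and doublets were marked by Scrublet score (355 in d/d and 533 in f/f at the expected rate; its automatic threshold marked 400 and 0), of which the 348 and 515 that passed the other filters were removed. Both libraries were clustered together without batch correction in scanpy 1.11.5 on 2000 variable genes with the 39 Hox genes left out, 30 principal components, 15 neighbours and Leiden resolution 1 (leidenalg 0.10.2). A cluster was named from its markers; 1 cluster of 48 f/f cells and 1 of 17 d/d cells stayed unnamed and are in no class. Within a library, raw counts of a class were added up and expressed as CPM of that sum. Intervals are exact 95% Poisson (levels), Clopper-Pearson binomial (shares) and conditional binomial (ratios) and cover counting error only; the step was checked on simulated data. A call took a ratio of 1.5-fold and 50 UMIs on the higher side. Levels or ratios are given for a selection of the Hox genes above the leukocyte level in each class, and the rest are named or counted. The examples from the other lists, and the pairs of clusters compared, were chosen after their values were seen. Values of 1 Hox gene and 1 cofactor are not reported here. The Hox members, the marker lists and the other gene lists were chosen with earlier results of these data known. Alternatives were other scaling (TMM from edgeR 4.0.16, no mitochondrial or ribosomal protein genes, mean of cells), other clustering, doublets kept, 2-fold calls, single clusters alone and leukocytes without macrophages (the last 2 chosen after seeing the data).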

Additional observations from a re-analysis of the deposited data

Results flagged for a closer look

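In the main setting Hoxd10 was past 1.5-fold in opposite directions in different classes. Its log2 ratio of d/d to f/f was 0.63 in smooth muscle-like cells and -0.60 in blood endothelium-like cells. Neither value reached 1.5-fold as a mean over cells. The smooth muscle value also fell short with doublets kept and in cluster 7 alone. The blood endothelium value also fell short with TMM and at Leiden resolution 2. The difference between the classes was not tested, since each genotype has 1 library. The leukocyte level of Hoxd10 was 4.09 CPM in d/d and 23.1 in f/f, and its part in the blood endothelium value was not tested.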

How the results depend on the processing

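The summed Hox level moved with the scaling and with the cells taken. In stroma-like cells its log2 ratio of d/d to f/f was -0.36, and -0.31 with TMM, -0.48 as a mean over cells, -0.19 in cluster 5 alone, -0.12 in cluster 10 alone, -0.10 after the leukocyte level was taken off and -0.21 with macrophages left out of that level. In epithelium-like cells it was -0.50, and -0.32 without mitochondrial and ribosomal protein genes, -0.29 with TMM, -0.0195 less the leukocyte level and -0.25 less that without macrophages. In smooth muscle-like cells it was -0.15, and 0.0350 with TMM, -0.33 as a mean over cells, 0.0945 in cluster 2 alone, -0.63 in cluster 7 alone, 0.23 less the leukocyte level and 0.0588 less that without macrophages. In pericyte-like cells it was -0.44, and -0.20 with TMM, -0.31 in cluster 6 alone, 0.0801 less the leukocyte level and -0.16 less that without macrophages. In blood endothelium-like cells it was -0.09, and -0.20 with doublets kept, 0.66 less the leukocyte level and 0.29 less that without macrophages. The single clusters and the subtraction of leukocyte levels were chosen after seeing the data, and the cause of these shifts was not tested. The numbers of genes above the leukocyte level moved by over 1.5 times only in single clusters of fewer cells, to 7 in d/d stroma-like cells (cluster 10), 12 in d/d and 7 in f/f smooth muscle-like cells (cluster 7) and 4 in f/f pericyte-like cells (cluster 8). Hoxc10 in stroma-like cells turned to -0.62 and Hoxc11 in pericyte-like cells to -0.73 in clusters 5 and 6 alone. In cluster 8 Hoxa7 turned to -1.37 and Hoxc6 to -1.02, while Hoxc11 was 2.42. Hoxb3 in stroma-like cells turned to -1.69 in cluster 10 alone, on 1 d/d and 16 f/f UMIs. The calls for Hoxa3 in smooth muscle-like, Hoxa5, Hoxa10 and Hoxc10 in pericyte-like and Hoxa5 in blood endothelium-like cells kept their direction and 1.5-fold in every other setting run. The calls not met under some setting (mean over cells, doublets kept, TMM, totals without mitochondrial and ribosomal protein genes, Leiden resolution 2 or a single cluster) were Hoxa3, Hoxc6, Hoxc10 and Hoxd11 in stroma-like, Hoxb8 in epithelium-like, Hoxd9 and Hoxd10 in smooth muscle-like, Hoxa7, Hoxc6 and Hoxc11 in pericyte-like and Hoxd10 in blood endothelium-like cells. At 2-fold, 10 called genes of these lists were lost. Some ratios short of 1.5-fold passed it in other settings, such as Hoxa10 in stroma-like cells, at -0.71 as a mean over cells. The lists leave out called genes that were above the leukocyte level in neither library. These are Hoxb3 in stroma-like, Hoxa10 in epithelium-like, and Hoxa10 and Hoxd11 in blood endothelium-like cells. No paired analysis was possible because each genotype has 1 library. Few UMIs limit the mesothelium-like, lymphatic endothelium-like and HoxC values.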
